A study of Homo sapiens with 2 samples.

Results

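The regions described here are peaks of histone H4 asymmetrically dimethylated at arginine 3 (H4R3me2a) at the start sites of long non-coding RNAs (lncRNAs) in HCT116, an established human colorectal carcinoma cell line. A peak was a member when its summit, the base with the highest signal, lay within 1 kb of an annotated lncRNA transcript start and more than 1 kb from every start of a protein-coding gene, by GENCODE release 44 on GRCh38. The rule used position alone. Of 33349 peaks on chromosomes 1 to 22 and X, 934 were members (2.80%, exact 95% interval 2.63 to 2.98). The study holds 1 immunoprecipitation library, made with an H4R3me2a antibody from cells given no drug, and 1 input DNA library from the same line. With 1 library in each group there is no replicate check and no test between conditions. All intervals are exact and cover counting error only, and neighbouring peaks are not independent.

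H4R3me2a is written mainly by the arginine methyltransferase PRMT1 and is generally described as a mark of active or permissive chromatin. LncRNAs are transcribed much like messenger RNAs but are not translated into long proteins. Many are transcribed from the opposite strand of a protein-coding gene, from its introns, or in the opposite direction from a shared promoter. A peak near a lncRNA start can therefore also lie in the body of a protein-coding gene. Of 1935 peaks within 1 kb of a lncRNA start, 1001 (51.7%) also lay within 1 kb of a protein-coding start and were left out by the rule. The members were split by whether the lncRNA gene of the nearest start overlaps a protein-coding gene on either strand, which held for 519 (55.6%, 52.3 to 58.8), or overlaps none, which held for 415 (44.4%).

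The sequences below show the members with the highest fold enrichment, the authors' ratio of signal to local background. Each run is the + strand of GRCh38, 5′ to 3′, either the whole peak or, where it is longer, 300 bases of it around the summit. Capitals mark CG dinucleotides, the sites of DNA methylation that are dense in CpG islands. The first 3 belong to lncRNAs that overlap a protein-coding gene, at chr13:45377410-45377594, chr17:82578183-82578362 and chr17:47099940-47100172, and were chosen because they lead that group by fold without touching an annotated untranslated region.
TPT1-AS1: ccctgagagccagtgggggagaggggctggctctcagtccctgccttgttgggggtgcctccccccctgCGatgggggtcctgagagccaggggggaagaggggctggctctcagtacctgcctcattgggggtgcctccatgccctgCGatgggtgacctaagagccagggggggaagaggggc
ENSG00000262652: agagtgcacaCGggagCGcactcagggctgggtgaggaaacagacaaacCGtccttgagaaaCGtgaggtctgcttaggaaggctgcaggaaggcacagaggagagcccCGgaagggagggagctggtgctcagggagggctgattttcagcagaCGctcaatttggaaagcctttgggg
ENSG00000262879: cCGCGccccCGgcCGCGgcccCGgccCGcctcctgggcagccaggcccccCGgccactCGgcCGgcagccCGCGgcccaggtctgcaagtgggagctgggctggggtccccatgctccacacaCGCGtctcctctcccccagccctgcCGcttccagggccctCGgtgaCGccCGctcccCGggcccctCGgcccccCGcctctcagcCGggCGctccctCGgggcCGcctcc
The next 3 belong to lncRNAs that overlap no protein-coding gene, at chr3:37217139-37217438, chr22:42368438-42368737 and chr6:30260055-30260354, and lead that group by the same rule.
ENSG00000271653: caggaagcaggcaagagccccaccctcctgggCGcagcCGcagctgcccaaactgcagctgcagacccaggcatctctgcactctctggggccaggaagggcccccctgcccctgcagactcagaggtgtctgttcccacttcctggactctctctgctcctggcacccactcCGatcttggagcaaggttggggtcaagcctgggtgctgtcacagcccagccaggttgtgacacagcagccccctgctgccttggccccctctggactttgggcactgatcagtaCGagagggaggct
LINC01315: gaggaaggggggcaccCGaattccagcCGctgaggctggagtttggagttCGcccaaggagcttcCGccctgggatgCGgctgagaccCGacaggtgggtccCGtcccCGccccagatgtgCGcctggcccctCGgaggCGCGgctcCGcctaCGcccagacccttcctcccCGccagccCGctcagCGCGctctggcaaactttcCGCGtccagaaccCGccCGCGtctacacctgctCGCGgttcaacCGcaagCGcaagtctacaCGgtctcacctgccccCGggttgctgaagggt
HLA-L: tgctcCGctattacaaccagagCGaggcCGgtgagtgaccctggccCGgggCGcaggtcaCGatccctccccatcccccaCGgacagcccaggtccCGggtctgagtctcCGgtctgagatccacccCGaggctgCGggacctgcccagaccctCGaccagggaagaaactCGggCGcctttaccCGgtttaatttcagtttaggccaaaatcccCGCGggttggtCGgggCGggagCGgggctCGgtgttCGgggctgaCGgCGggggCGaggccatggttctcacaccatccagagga

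These 6 sequences differed widely in base composition. The peaks at ENSG00000262879, LINC01315 and HLA-L held 25, 29 and 25 CG dinucleotides, whereas those at TPT1-AS1 and ENSG00000271653 held 2 and 4 although 68.6% and 64.3% of their bases were G or C. High fold was thus found both in CG-dense and in CG-poor sequence. The TPT1-AS1 sequence repeats itself: over the 401 bp around the summit, 60.6% of bases matched the base 79 positions further on. HLA-L belongs to the HLA class I family, which has closely related copies. The 32-base runs sampled around its summit had a median of 1 exact copy in the genome.

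The highest fold among the members was 7.87, at ENSG00000271653, a lncRNA with no gene symbol, where 14 fragments were piled up at the summit over a recovered background of 0.907. Its summit lay 510 bp downstream of the start, in a lncRNA exon, and 25902 bp from the nearest protein-coding start, that of GOLGA4. LINC01315 followed with a fold of 7.54 from 15 fragments, 634 bp downstream of its start. TPT1-AS1, antisense to SLC25A30 in this annotation, had a fold of 7.07 from 11 fragments over 0.697, the lowest background among the members, which 49 of them shared. HLA-L reached 6.92 from 13 fragments. The other 6 of the 10 highest folds lay between 6.47 and 6.61, at ENSG00000274367, LINC00511, ENSG00000262652, ENSG00000262879, ENSG00000254639 and SEMA3F-AS1. Of these, ENSG00000262652 lies in an intron of FOXK2, a forkhead transcription factor gene, on the same strand, and SEMA3F-AS1 runs opposite to RBM5 and SEMA3F. Summits rested on few fragments: among all members the pileup ran from 5 to 23 with a median of 10, and 57.4% of members had 10 fragments or fewer. The same held for 59.5% of all peaks, so low pileup was general to the peak list.

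Fold at lncRNA starts was close to that of other peaks. The median fold was 4.21 in members (4.14 to 4.30), from 2.67 to 7.87, against 4.26 in 10105 peaks within 1 kb of protein-coding starts and 4.12 in 22310 peaks elsewhere. The overlapping and non-overlapping members had medians of 4.21 and 4.23. A fold of 6 or more was seen in 30 of 934 members (3.21%, 2.18 to 4.55), against 3.51% of all peaks, 5.59% at protein-coding promoters and 2.59% elsewhere. The share in members was thus near that of all peaks. By group it was 21 of 519 (4.05%) in overlapping and 9 of 415 (2.17%) in non-overlapping members, and these intervals overlap.

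**Figure D1:**
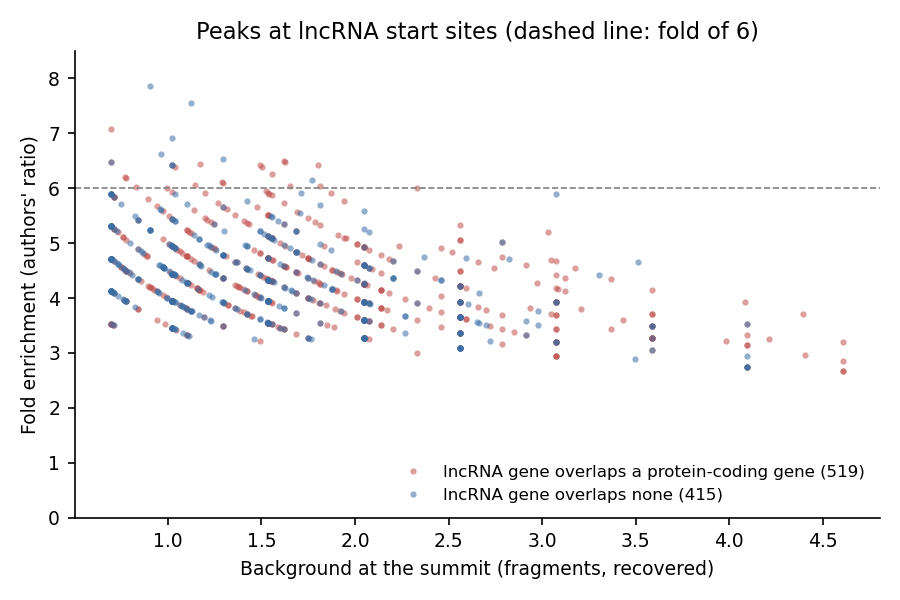
Fold enrichment (vertical axis, the authors' ratio) against the background at the summit (horizontal axis, fragments, recovered from pileup and fold) for the 934 members, each a point, coloured by whether the lncRNA gene overlaps a protein-coding gene. The dashed line marks a fold of 6; all 30 members on or above it lie below a background of 2.5, and the bands arise because the pileup is a whole number.

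The fold depended on the background against which it was computed, so members were also read by background. Below 0.8 fragments, 97 members had a median fold of 4.71, against 4.50 elsewhere and 4.71 at protein-coding promoters. From 0.8 to 1.5 fragments, 324 members had a median of 4.42 (4.30 to 4.45), against 4.43 elsewhere and 4.62 at promoters. From 1.5 to 2.5 fragments, 360 members had a median of 4.26, against 4.08 elsewhere and 4.22 at promoters. At 2.5 fragments or more, 153 members had a median of 3.65, against 3.49 elsewhere and 3.56 at promoters. None of these members reached a fold of 6, which was also rare in that class elsewhere (0.316%) and at promoters (0.376%). Members of overlapping lncRNAs had more fragments at the summit (median 11 against 9) over a higher background (1.60 against 1.43), so their fold was alike although their pileup was not. Peaks just inside and just outside the lncRNA distance limit were similar, with a median fold of 4.12 both in 92 peaks at 901 to 1000 bp and in 75 at 1001 to 1100 bp. At the protein-coding limit the 36 members at 1001 to 1100 bp had a median fold of 4.0 and the 46 peaks left out at 901 to 1000 bp 4.34.

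Most members were narrow. The median width was 189.5 bp, between 205 bp at protein-coding promoters and 178 bp elsewhere, and 33 members (3.53%) spanned 500 bp or more. That share was also 3.53% in all peaks, with 5.97% at protein-coding promoters and 2.42% elsewhere. The 5 widest were at ENSG00000261924 (1208 bp), a lncRNA antisense to RPTOR, which encodes the mTORC1 subunit raptor, then ENSG00000264735 (1079 bp), ENSG00000289913 (801 bp), URAHP (774 bp) and MIR9-1HG (659 bp). The widest had a fold of 3.71, from 16 fragments over a background of 3.59, below the median of all members.

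Base composition set the members between promoters and other sequence. Mean GC content in the 401 bp around the summit was 60.3% ± 6.51 (SD over 934 peaks), against 62.7% ± 7.43 at protein-coding promoters and 57.7% ± 6.64 elsewhere. The ratio of observed to expected CG dinucleotides averaged 0.375, against 0.477 and 0.293. The GC box GGGCGG, the core of the site bound by Sp1-family factors, was present on either strand in 35.7% of members, 44.8% of promoter peaks and 23.9% of peaks elsewhere, and in 10.8% of 21020 positions taken every 2000 bp through the sequence that could hold a member. The other motifs were about as frequent in members as in all peaks. CCGGAAG, an ETS-type motif, was in 4.39% of members, 4.30% of all peaks and 1.70% of those positions. The E-box CACGTG was in 7.49%, 8.02% and 5.0%, the AP-1 motif TGACTCA in 4.60%, 4.66% and 7.09%, and the TCF/LEF-type motif CTTTGAT in 2.57%, 2.54% and 5.92%. For these 4 motifs the gap between members and the positions was thus shared by peaks in general. The positions were not matched for GC content, and its part in these differences was not tested. A match is a run of letters and not evidence of binding.

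Most overlapping members lay in the body of a protein-coding gene, counted for any such gene and not only the one that the lncRNA overlaps. The summit was inside a protein-coding gene in 399 of 519 (76.9%), with 275 in introns, 58 in coding sequence, 58 in untranslated regions and 8 in other exons. This group was defined by overlap with a protein-coding gene, so a high share follows in part from the split. Summits outside gene bodies made up 23.1% of overlapping members and 31.9% of peaks elsewhere. The intron share was near the 53.3% of peaks elsewhere. Coding sequence and untranslated regions each held 11.2% of overlapping members, against 8.31% and 4.91% of peaks elsewhere. The overlap was on the strand opposite to the lncRNA only in 427 members, on the same strand only in 72 and on both in 20. In the group without overlap, 68.4% of summits lay more than 10 kb from any protein-coding start, against 24.3% of overlapping members. An exon of a lncRNA held the summit in 30.1% of overlapping and 31.3% of non-overlapping members.

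How often a peak occurred differed with protein-coding gene bodies and with distance from protein-coding starts. The sequence within 1 kb of a lncRNA start and over 1 kb from protein-coding starts covered 42.0 Mb and held 22.2 peaks per Mb, against 80.1 per Mb at protein-coding promoters. Inside protein-coding gene bodies this sequence held 34.9 peaks per Mb, and outside them 17.5. GC content differs between such regions, so the number of peaks was compared with the number that the peak rate by GC content gives over all sequence more than 1 kb from protein-coding starts. The ratio was 1.38 inside gene bodies (1.25 to 1.52), 0.704 outside (0.645 to 0.766) and 1.65 at protein-coding promoters (1.62 to 1.69).

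Over the whole lncRNA start sequence that ratio was 0.892 (0.836 to 0.951), with 934 peaks where GC content gave 1047. The value below 1 depended on the reference and the window: the ratio was 1.05 (0.987 to 1.12) with separate rates inside and outside gene bodies, 0.970 (0.909 to 1.03) with rates by GC content and CG count, and 1.07 (1.02 to 1.11) when the window was widened to 3 kb. Each stratum set against its own rate gave 402 peaks against 372 inside gene bodies (1.08, 0.977 to 1.19) and 532 against 515 outside (1.03, 0.948 to 1.13). Both intervals include 1, so at like GC content and gene-body status no difference from the average of sequence over 1 kb from protein-coding starts was detectable over all GC classes together.

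**Figure D2:**
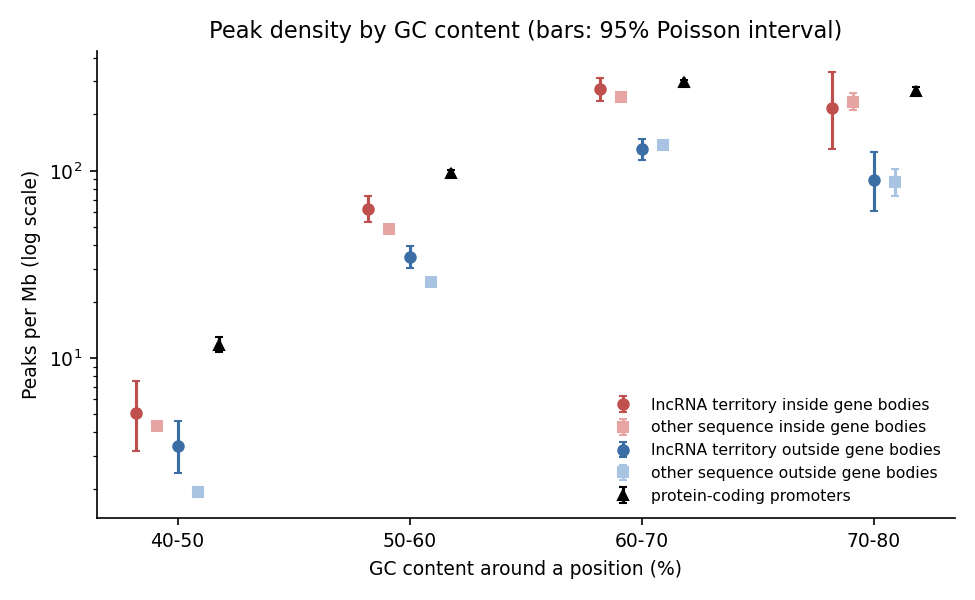
Peaks per Mb (vertical log axis) by GC content of the 401 bp around a position (horizontal axis, %) for sequence within 1 kb of lncRNA starts and other sequence, inside (red) and outside (blue) protein-coding gene bodies, and for protein-coding promoters (black); bars are 95% Poisson intervals. At 60 to 70% GC the lncRNA start sequence held 273 peaks per Mb inside and 130 outside gene bodies, close to 248 and 137 in other sequence.

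The GC classes did not all behave alike. At 50 to 60% GC, lncRNA start sequence held more peaks than other sequence both inside gene bodies (62.7 per Mb, 53.1 to 73.6, against 48.9) and outside them (34.7, 30.2 to 39.7, against 25.3). At 60 to 70% GC the intervals overlapped, with 130 (114 to 147) and 137 (132 to 143) outside gene bodies and 273 (237 to 313) and 248 (242 to 255) inside them. Protein-coding promoters held 97.1 and 296 peaks per Mb in these classes. At 40 to 50% GC, lncRNA start sequence held 3.40 peaks per Mb (2.44 to 4.61) outside gene bodies, against 1.93 in other sequence. Inside gene bodies it held 5.05 (3.20 to 7.58), against 4.35. The classes are wide and GC content was not matched within them, so its part in these differences was not tested. The classes were examined after the overall ratio was known.

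The ratio declined with distance from the nearest protein-coding start, both near lncRNA starts and in other sequence. At 1 to 2 kb the ratio to the number from GC content was 1.72 (1.48 to 2.0) near lncRNA starts and 1.82 in other sequence. At 2 to 5 kb it was 1.47 and 1.53, at 5 to 10 kb 1.19 and 1.31, and beyond 10 kb 0.598 (0.542 to 0.659) and 0.680 (0.666 to 0.694). In the last class the interval near lncRNA starts lay below that of other sequence, without a match for gene bodies.

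**Figure D3:**
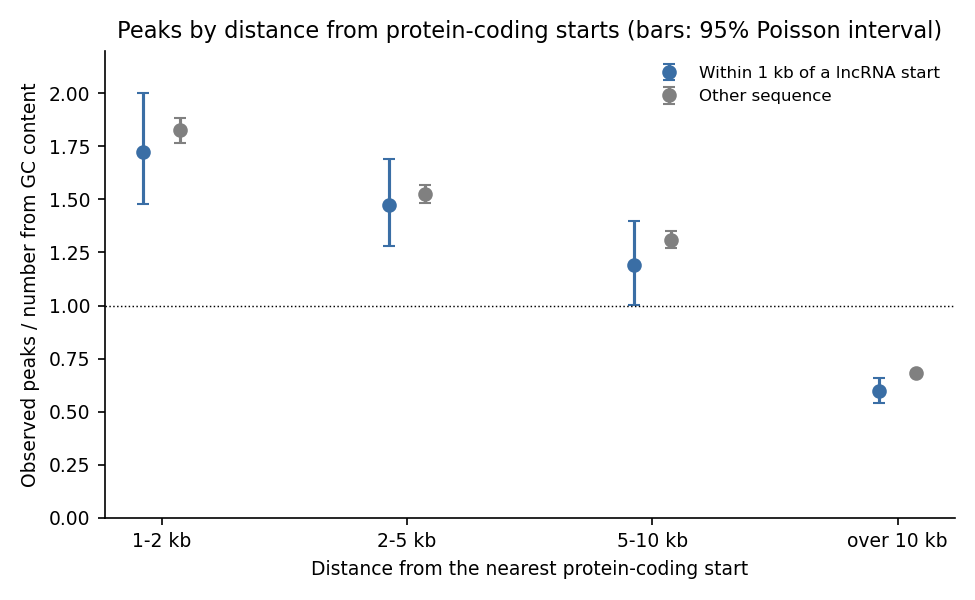
Ratio of observed peaks to the number given by GC content (vertical axis) by distance from the nearest protein-coding start (horizontal axis, 4 classes), for sequence within 1 kb of a lncRNA start (blue) and other sequence (grey); bars are 95% Poisson intervals. Both fall from above 1.7 at 1 to 2 kb to below 0.7 beyond 10 kb.

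Within 1 kb, about as many summits lay upstream as downstream of lncRNA starts. Of the members, 475 lay downstream and 458 upstream, a ratio of 1.04 (0.910 to 1.18), where GC content gave 1.10, and 1 summit lay on the start itself. The ratio was 1.05 for overlapping and 1.02 for non-overlapping members. Around protein-coding starts of any transcript, 6592 summits lay downstream and 3503 upstream within 1 kb, a ratio of 1.88 (1.81 to 1.96). For these starts no summits near other genes were left out, and no number from GC content was computed. When each gene was reduced to its 5′ end, the ratio was 3.32 (3.09 to 3.58) for protein-coding genes and 1.08 (0.931 to 1.25) for lncRNA genes, and these intervals lie far apart. Other starts of a gene lie downstream of its 5′ end, and their part in the ratio was not tested. The downstream excess at protein-coding starts was thus not seen at lncRNA starts, but the distance rule removed summits only around the latter.

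**Figure D4:**
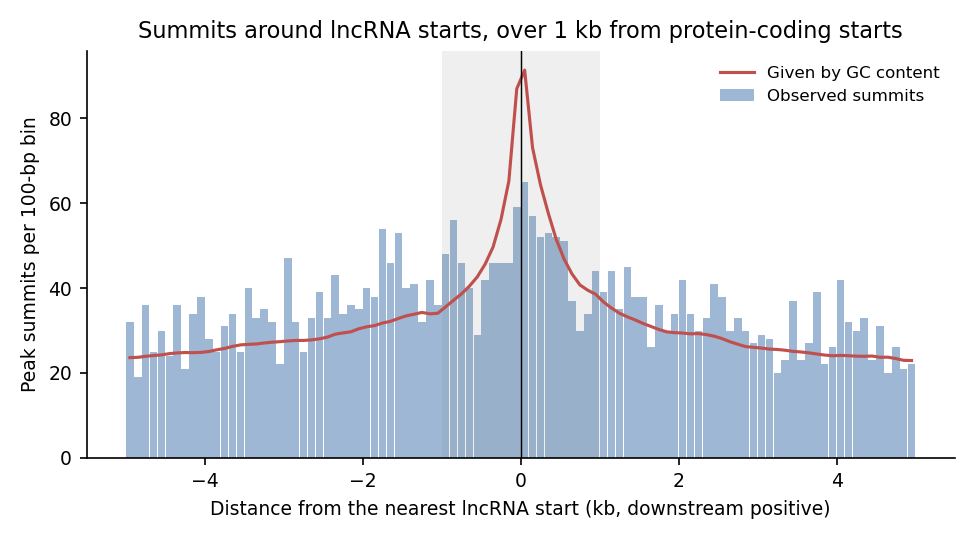
Peak summits per 100-bp bin (vertical axis, bars) by distance from the nearest lncRNA start (horizontal axis, kb, downstream positive), with the number given by GC content as a red line and the 1-kb window shaded. The line peaks sharply at the start, whereas the bars rise less there. From 1 to 5 kb the bars scatter around the line but exceed it when summed on either side.

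Near the start itself, 279 summits lay in the first 500 bp downstream and 239 in the first 500 bp upstream, fewer than the 338 and 304 given by GC content (ratios 0.826, 0.732 to 0.929, and 0.787, 0.690 to 0.893). With separate rates inside and outside gene bodies these ratios were 0.994 (0.881 to 1.12) and 0.946 (0.830 to 1.07), and with rates by GC content and CG count 0.930 (0.824 to 1.05) and 0.883 (0.774 to 1.002). The shortfall therefore did not exceed counting error once gene bodies were taken into account. From 500 to 1000 bp upstream, 219 summits stood at 1.13 (0.982 to 1.29) by GC content, 1.28 (1.12 to 1.46) with gene-body rates and 1.16 (1.02 to 1.33) with CG count, and downstream 196 stood at 0.938, 1.08 and 0.967, each with an interval that includes 1. From 1 to 5 kb the counts exceeded the reference under all 3 rates, by ratios of 1.15 to 1.27 downstream and 1.23 to 1.28 upstream.

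Counted by gene, 750 of 15386 lncRNA genes with a start outside protein-coding promoters had a member (4.87%, 4.54 to 5.23). The share was 6.24% (5.65 to 6.87) for genes that overlap a protein-coding gene and 3.97% (3.58 to 4.38) for those that do not. Genes with 1 annotated start had a member in 4.16% and those with 10 or more in 9.0%. More sequence is counted for the latter, and its part in the difference was not tested. Around GC-rich starts the split was wide: at 60% GC or more within 500 bp of the start, 31.1% (27.1 to 35.3) of overlapping and 15.6% (13.2 to 18.2) of non-overlapping genes had a member.

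The same split appeared when each gene was reduced to its 5′ end and set beside protein-coding genes of like GC content. Peaks within 1 kb of protein-coding starts were not counted for lncRNA genes. At 60 to 70% GC, a peak lay within 1 kb of the 5′ end in 28.9% of 447 overlapping lncRNA genes (24.7 to 33.3), 28.3% of 6830 protein-coding genes (27.2 to 29.4) and 13.0% of 767 non-overlapping lncRNA genes (10.7 to 15.6). At 50 to 60% GC the shares were 10.3%, 12.7% and 6.32%. Overlapping lncRNA genes thus stood close to protein-coding genes in these classes, and non-overlapping ones well below both. At 40 to 50% GC the likeness did not hold. There the share was 1.75% (1.27 to 2.35) in overlapping lncRNA genes, 3.05% (2.46 to 3.72) in protein-coding genes and 0.951% (0.667 to 1.31) in non-overlapping ones. The 5′ ends of overlapping lncRNAs often lie in a protein-coding gene body, and the part of that in the difference was not tested.

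**Figure D5:**
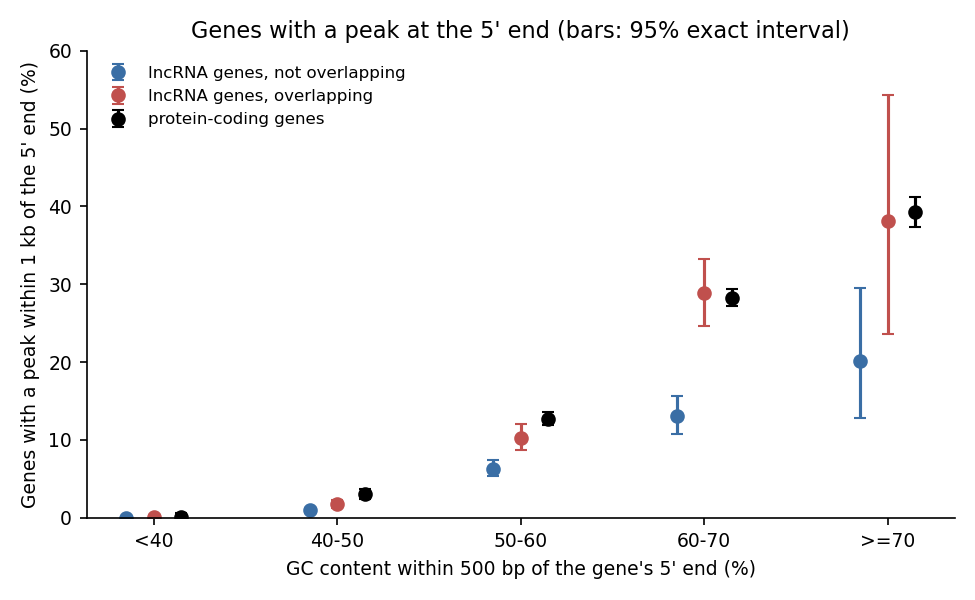
Share of genes with a peak within 1 kb of the 5′ end (vertical axis, %) by GC content within 500 bp of that end (horizontal axis, %), for non-overlapping lncRNA genes (blue), overlapping lncRNA genes (red) and protein-coding genes (black); bars are 95% exact intervals. At 60 to 70% GC the red and black points stand at 28.9% and 28.3% and the blue point at 13.0%.

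Protein-coding genes whose overlapping lncRNA had a member often had a promoter peak of their own. Such a peak was present in 247 of 431 (57.3%, 52.5 to 62.0), against 28.3% of 4746 protein-coding genes whose overlapping lncRNAs had no member and 31.9% of 14793 with no overlapping lncRNA. These groups were not matched for base composition, and their median lengths were 31.6, 64.0 and 21.3 kb.

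The members were nearest to 776 lncRNA genes, of which 654 had 1 member, 96 had 2 and 26 had 3 or more. LINC03048, which overlaps no protein-coding gene and lies near BAHCC1 on chromosome 17, had the most, 6 members with folds from 3.53 to 5.25. MIR9-1HG, the host transcript of a neuronal microRNA, had 5, from 3.36 to 4.59. LINC00511, a lncRNA reported in several cancers, had 4, from 3.76 to 6.53. ENSG00000262712, which overlaps GLIS2 and PAM16, and MUC20-OT1, which overlaps the mucin gene MUC20, had 4 each, up to 5.90 and 4.92. Genes with many annotated starts have more chances to hold a member, and LINC00511 has 82.

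Small nucleolar RNA host genes, whose introns release the RNAs that guide ribosomal RNA modification, had a member in 8 of 26 (30.8%, 14.3 to 51.8), beside 4.87% of all lncRNA genes. SNHG16 had the highest fold in the list, 6.42 from 15 fragments, 301 bp downstream of a start. SNHG12 followed with 6.01 from 10 fragments, 3 bp downstream of its start, then SNHG6 with 4.92 and SNHG29 with 4.82. GAS5 and DANCR, other members of the list, had none. No match was made for GC content or for the number of starts, and their part in the share was not tested.

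MicroRNA host genes had a member in 9 of 77 (11.7%, 5.49 to 21.0), beside 4.87% of all lncRNA genes. Here too GC content and the number of starts were not matched, and MIR9-1HG alone has 37 starts. MIRLET7BHG, host of let-7 family microRNAs, had the highest fold, 4.97 from 13 fragments, 92 bp upstream of a start. MIR9-1HG reached 4.59, MIR194-2HG 4.48 and MIR210HG, host of a hypoxia-induced microRNA, 4.47. No member of this list had a fold of 6.

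Lists by gene name stood nearer to all lncRNA genes. Antisense-named genes had a member in 96 of 1199 (8.01%, 6.53 to 9.69), an interval above the 4.87% of all lncRNA genes. This list was not matched for GC content or the number of starts, and the part of these was not tested. TPT1-AS1, SEMA3F-AS1, IER5L-AS1 (6.42) and EHBP1-AS1 (6.38) were highest by fold. Of lncRNA genes that overlap a protein-coding gene on the opposite strand only, 6.76% (6.05 to 7.53) had a member. LINC genes had one in 101 of 2219 (4.55%), led by LINC01315, LINC00511, LINC02043 (6.42) and LINC01451 (6.14). Divergent transcripts share a promoter with a protein-coding gene and mostly fall to the distance rule. They had a member in 5 of the 156 with a start outside protein-coding promoters (3.21%). Counted by nearest start without that limit, 9 divergent transcripts were nearest to a member. The highest of these was at KCTD13-DT (5.43), followed by CTBP1-DT (5.21), PRDM16-DT (5.08) and MRPL20-DT (4.42). Intronic and overlapping transcripts had one in 4 of 134 (2.99%), ITCH-IT1 (5.06), MAPT-IT1 (4.92), MUC20-OT1 (4.92) and ITPKB-IT1 (4.53). Genes without a symbol, the bulk of the annotation, had one in 481 of 10913 (4.41%).

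Of 9 well-studied lncRNAs none had a member (interval 0 to 33.6%), which does not set them apart from all lncRNA genes, of which 4.87% had one. MALAT1 and NEAT1, abundant nuclear RNAs, H19 and KCNQ1OT1, imprinted transcripts, GAS5, DANCR, CRNDE, and the HOX cluster transcripts HOTAIR and HOTTIP had no peak within 1 kb of any of their starts. HOTTIP had 1 peak in its body, with a fold of 3.31, and the other 8 had none there either. TUG1 was not among the lncRNA genes of the annotation used and was not analysed here. Of 23 lncRNAs studied in colorectal cancer, 3 had a member (13.0%): LINC00511 at 6.53, SNHG6 at 4.92 and PVT1, the neighbour of the oncogene MYC, at 4.73.

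The other lists were small. Of 10 imprinted lncRNAs only MEG3 had a member, with a fold of 3.55 from 9 fragments. Of 10 abundant or housekeeping lncRNAs and of 6 linked to p53, LINC-PINT alone had one, at 4.18. Of 14 lncRNAs known from other tissues, CARMN (3.91) and MEG3 had a member. None of 11 HOX cluster lncRNAs with a start outside protein-coding promoters had one within 1 kb of such a start, although HOTAIRM1 was the nearest lncRNA to 1 member, at 3.94. The intervals of these small lists, and that of the colorectal list (2.78 to 33.6), all include the 4.87% of all lncRNA genes.

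Members were unevenly spread over chromosomes. Chromosome 17 held 134, 1.75 times the number its GC content gave (1.46 to 2.07), and chromosome 19 held 80, 1.38 times (1.10 to 1.72). Chromosomes 18 and X held 3 each, 0.166 and 0.175 times that number, and chromosomes 7, 13 and 15 held 0.519, 0.436 and 0.498 times it. Of all peaks, members made up 3.54% on chromosome 17 and 2.29% on chromosome 19, beside 2.80% over all chromosomes. On chromosomes 7, 13 and 15 this share was 2.03%, 2.68% and 3.02%, and on 18 and X 1.18% and 1.69%. It was highest on chromosomes 21 (5.20%) and 20 (4.28%). The copy number of each chromosome in this cell line, which sets how much DNA is sampled, was not analysed here. Another peak lay within 1 kb of 25.9% of members, against 31.3% at protein-coding promoters and 21.2% elsewhere.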

How the data were processed

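Chromatin from HCT116 cells gave 1 H4R3me2a and 1 input library, and peaks were called on that pair. Bowtie2, MACS2, deepTools and GRCh38 are named, per the submitters' processing notes. Versions, parameters and read numbers are not stated there. Per the file headers, the deposited table gives each peak's summit, pileup signal in fragments, fold (a ratio to local background) and −log10 p-value and q-value, all from the authors' caller.

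The background was recovered as (pileup + 1) / fold − 1. Summits were placed against 47297 GENCODE release 44 lncRNA starts, leaving out 4 mitochondrial peaks of 33353. Numbers given by GC content used rates in bins of 2% GC over 200 bp on either side, and the rates include the lncRNA start sequence. Intervals are Clopper-Pearson or Poisson at 95%. Exact copies of 5 32-mers per summit stood in for a repeat mask, and 17 members (1.82%) had more than 1 copy. Of all peaks 4.08% did, with 5.55% elsewhere and 1.03% at protein-coding promoters.

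The rule named the 10 members of highest fold, the 5 widest, the 5 genes with most members, up to 4 genes a list by fold and 10 well-known lncRNAs. Members and lists were chosen with earlier results of these data known. Gene-body strata, GC classes, the protein-coding comparisons, host genes, neighbours, windows, repeats and gene-body peaks were added after seeing the data. Scripts (Python 3.11.15, numpy 2.4.6, pandas 2.3.3, scipy 1.17.1) were tested on simulated data.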

Additional observations from a re-analysis of the deposited data

How the results depend on the processing

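A −log10 q of 5 or more left 35 members, 65.7% of them overlapping, with a median fold of 6.14, a downstream to upstream ratio of 1.69 and a member in 0.214% of lncRNA genes. A window of 500 bp gave 519 members and 3.04% of genes, with a density ratio of 0.806, and a window of 3 kb gave 2416, 9.38% and 1.07. A distance of over 5 kb from protein-coding starts gave 555 members, 39.5% overlapping, and 3.80% of genes. The density ratio was 0.970 with rates by GC and CG count, 1.05 with rates inside and outside gene bodies and 0.781 with rates over the whole genome, where the intervals of the first 2 include 1. Merging peaks under 1 kb apart gave a median fold of 4.30 and 4.53% of genes, and the 5′ end of each gene alone gave 4.23%. The overlapping share was 47.9% when only the opposite strand counted and 43.0% when the summit itself had to lie in a gene body. The rates around the start were added after seeing the data. No paired analysis was possible because each group is 1 library. Few fragments per summit limit what can be told apart.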

Other observations

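Members gathered in a few places. The 8 fullest windows of 5 Mb held 223 members (23.9%), against 15.7% of all peaks in the same windows. The windows were chosen by their member count, so the first share is high by that choice.

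After the repeat in the TPT1-AS1 sequence had been read, tandem repeats were counted in all peaks. A repeat was called where at least 60% of the bases in the 401 bp around the summit matched those 10 to 150 bp further on. Repeats were found in 15 of 934 members (1.61%, 0.902 to 2.64), 1.40% of peaks elsewhere, 0.386% of peaks at protein-coding promoters and 0.318% of 7541 positions at 1 in 5 lncRNA starts. At like GC content the gap to lncRNA starts was smaller and the intervals overlapped: 1.65% (0.609 to 3.56) of members against 0.563% (0.281 to 1.01) of starts at 50 to 60% GC, and 1.32% (0.487 to 2.85) against 0.698% (0.257 to 1.51) at 60 to 70%. TPT1-AS1, at 60.6%, lay just above the limit. The highest were ENSG00000287464 with 90.7% at a shift of 23 bp, ENSG00000288834 with 81.6% at 32 bp and ENSG00000260022 with 79.4% at 41 bp. The median fold of the 15 was 3.95, against 4.21 in the other members. In the other sets the direction was reversed, with 4.49 for repeats against 4.12 elsewhere and 4.74 against 4.26 at protein-coding promoters. Array copy numbers in this cell line were not analysed here.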
